A study of Mus musculus with 6 samples.

Results

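The transcripts described here encode the enzymes and transporters of glycolysis, of the pyruvate branch point and of the pentose phosphate pathway, measured in sorted mouse regulatory T cells (Treg cells) with and without the transcription factor Foxo1. The 33 genes were chosen by name, by their place in these pathways, with earlier results of these data known. Their counts are therefore not those of a list drawn up independently of the data. A probe set (the group of short array probes that measures a transcript) was listed for 30 of them, among 18194 genes in all. After the dimmest 25% of genes were left out, 29 were tested, among 13645 genes. Slc16a3, a lactate exporter, fell below that filter with log2 levels of 4.75 to 5.10, and Gpi1, Eno1 and G6pdx were not analysed here.

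The study placed 6 arrays in 4 groups, all of nTreg cells sorted out of C57BL/6 mice. Foxo1KO/Foxo1AAA cells came on 1 array and carried the Foxo1 knockout together with Foxo1AAA, a constitutively active form of the protein. Foxo1AAA cells came on 1 array and carried the active form without the knockout. Foxo1KO cells came on 2 arrays, and wild-type (WT) cells on 2. The design asks which transcripts depend on Foxo1 and which return when the active form is added to the knockout. The deleted part of Foxo1, the promoters and cell types that drove deletion and transgene, the ages and sexes of the mice, any pooling, and whether replicate arrays came from separate mice are not stated by the labels. The p-values therefore measure the spread between these arrays, and whether that is a spread between single mice is not known. Replicates 1 and 2 of Foxo1KO and of WT differed in a Y-linked transcript (below), so they did not repeat the same RNA sample.

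Glycolysis splits glucose into pyruvate. Hexokinase and phosphofructokinase commit the sugar in the upper part of the pathway, and the lower enzymes, starting with Gapdh, recover ATP and NADH. Pyruvate then goes either to lactate through lactate dehydrogenase or into mitochondria through pyruvate dehydrogenase, which the Pdk kinases restrain. The pentose phosphate pathway draws glucose 6-phosphate aside to make NADPH and ribose, and its transketolase and transaldolase steps return carbon to glycolysis. T cells raise glycolysis when they are activated and divide, and Foxo1 is a forkhead factor that Akt, the kinase of growth signalling, keeps out of the nucleus.

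Several array-wide measures moved with the groups. For Foxo1 itself, the 3 probe sets above the filter had log2 differences of -0.49, -0.54 and -0.43 in Foxo1KO relative to WT (limma p adjusted across every probe set 0.0261, 0.0166 and 0.056), and the 4th, below the filter, differed by 0.09. On the Foxo1KO/Foxo1AAA array the same 3 lay lower still, at -0.58, -0.76 and -1.10 relative to Foxo1KO. In Foxo1AAA they were not above WT either, at -0.22, -0.38 and -0.48. The Foxo1 signal thus differed between the 2 groups with the knockout. Replicate arrays correlated at r = 0.996 in both groups across all probe sets, and Foxo1KO with WT arrays at 0.984 to 0.985. The lone Foxo1KO/Foxo1AAA and Foxo1AAA arrays stood apart from the other 4, at r = 0.994 with each other and 0.971 to 0.980 with the rest. These correlations run across probe sets, which are not independent replicates. The mean log2 level of 11 proliferation markers was 11.52 on the Foxo1KO/Foxo1AAA array, 11.26 on the Foxo1AAA array, 11.48 on both Foxo1KO arrays, and 10.27 and 10.04 on the WT arrays. The mean of 8 myeloid markers was 8.52, 8.34, 6.95 and 6.42, and 6.07 and 6.33 on the same arrays in the same order, and Csf1r, the macrophage growth factor receptor, was at 12.38 and 11.99 on the lone arrays against 8.36 to 9.12 on the other 4. The means of 8 Treg markers lay between 10.92 and 11.14 on all arrays, although Foxp3 itself, at 5.10 to 5.58, was below the filter. Single Treg markers moved both ways, and 3 of 7 tested passed a limma adjusted p under 0.05 in Foxo1KO relative to WT. Ctla4 and Tnfrsf4 differed by 0.46 and 0.32, and Cd4 by -0.37. Replicate 1 of Foxo1KO and of WT lacked the Y-linked transcript Eif2s3y (4.05 and 3.91), whereas replicate 2 of each had it (9.91 and 10.09) together with Xist (12.59 and 12.03). The lone arrays had Eif2s3y at 10.56 and 10.59 with Xist at 6.27 and 6.04. The difference between the 3′ and 5′ probe sets of Gapdh, a sign of RNA quality, was 0.19 and 0.10 on the Foxo1KO/Foxo1AAA and Foxo1AAA arrays, 0.42 and 0.32 in Foxo1KO, and 0.48 and 0.65 in WT, and that of actin was 0.66 and 0.62 on the lone arrays against 0.70 to 0.76 on the rest. The spike-in control BioB was also brighter on the lone arrays, at 9.02 and 9.10 against 8.17 to 8.38. The spike-in controls BioC and BioDn were not, with a mean over 4 probe sets of 10.87 and 10.96 against 10.84 to 11.07. In sorted bulk cells, fewer cells of a type and less RNA per cell cannot be told apart.

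**Figure D1:**
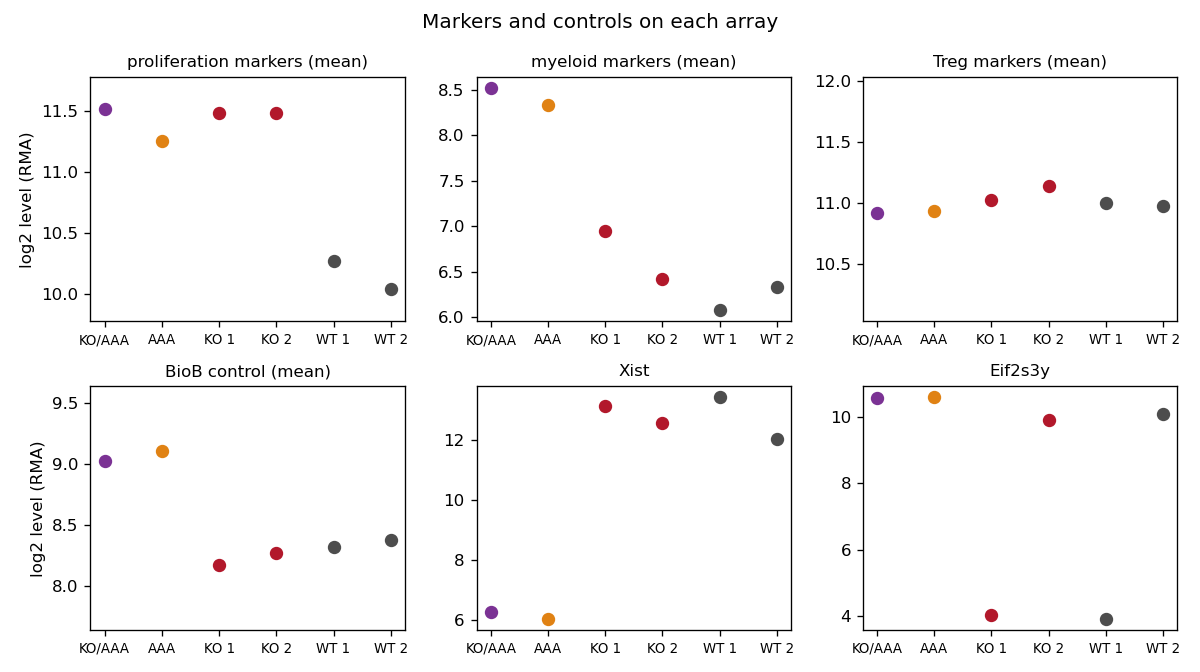
Mean log2 level (RMA) of proliferation, myeloid and Treg markers and of the BioB control probe sets, and the levels of Xist and Eif2s3y, on each array; KO/AAA is Foxo1KO/Foxo1AAA, AAA is Foxo1AAA, KO is Foxo1KO, and each point is 1 array. Proliferation markers were low on the WT arrays alone, whereas myeloid markers and BioB were high on the 2 lone arrays.

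The first comparison asked how the pathway differed without Foxo1. In Foxo1KO cells 11 of the 29 tested members rose and 1 fell relative to WT (37.9% and 3.45% of members), where 11.2% of all tested genes rose and 10.7% fell, 21.8% together. Calls were made in limma over all tested genes, where the Benjamini-Hochberg adjusted p had to be under 0.05. The median log2 difference was 0.13 over the members and 0.03 over all tested genes. The arrays of the 2 groups did not overlap for 21 of the 29 members (72.4%, against 60.2% of all tested genes). The enzymes between hexokinase and pyruvate kinase held 11 of these 12 calls, with 10 of 14 higher, 1 lower and a median of 0.44, and the remaining one was the pentose phosphate gene Tktl1. Of the 3 transporters and the 6 genes of pyruvate and lactate none was called by limma, and at an unadjusted p under 0.05 each of these groups held 2 lower genes and 0 higher ones. All 11 proliferation markers rose in the same comparison, with a median of 1.52, and their part in these differences was not tested. Of the other cell types checked, 2 of 6 tested myeloid markers and 1 of 4 CD8 T and NK cell markers rose, and no B cell or dendritic cell marker was called.

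**Figure D2:**
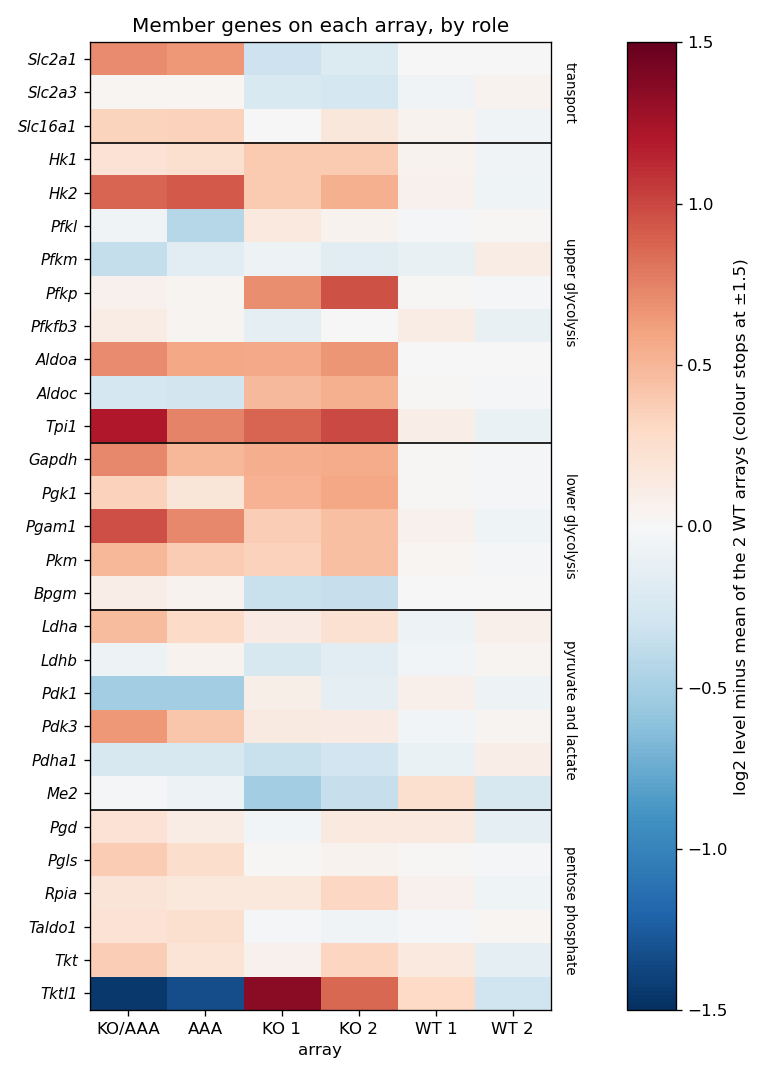
Log2 level of each tested member on each array, minus the mean of the 2 WT arrays, grouped by role; KO/AAA is Foxo1KO/Foxo1AAA, AAA is Foxo1AAA, KO is Foxo1KO, and the colour stops at 1.5 log2 units either way. The rows of upper and lower glycolysis are mostly above WT on both Foxo1KO arrays, and Tktl1, at the bottom, is above WT on them and far below on the 2 lone arrays.

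Triose phosphate isomerase, Tpi1, which interconverts the 3-carbon sugars made by aldolase, had log2 levels of 11.11 and 11.23 in Foxo1KO cells, against 10.33 and 10.14 in WT cells. Its lower Foxo1KO array was above its higher WT array by far more than either pair differed, and the gene rose 1.91-fold (log2 difference 0.93, SE 0.11, limma adjusted p = 3.21e-04). Its 3 probe sets differed by 0.93 to 1.05, all higher in the knockout. Aldoa, the aldolase best known in muscle, was at 11.14 and 11.23 in Foxo1KO cells, against 10.57 and 10.58 in WT cells. For this probe set the groups were well separated, and Aldoa rose 1.53-fold (0.61, SE 0.09, adjusted p = 0.00171). Its 5 probe sets were all higher in the knockout, by 0.14 to 0.81. The smallest of these differences was not called (limma p adjusted across every probe set 0.491). By their names, all 5 may cross-detect related transcripts. Aldoc, the aldolase best known in brain, was at 8.29 and 8.33 in Foxo1KO cells, against 7.82 and 7.78 in WT cells. It rose 1.42-fold (0.51, SE 0.09, adjusted p = 0.00429), so both aldolases were higher in the knockout.

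Of the 3 genes for subunits of phosphofructokinase, the main control point of the pathway, only Pfkp was called, by the brightest probe set of each. Pfkp, the platelet-type subunit, was at 11.36 and 11.62 in Foxo1KO cells (11.49 ± 0.18, SD, n = 2), against 10.67 and 10.64 in WT cells (10.66 ± 0.02, SD, n = 2). Both Foxo1KO arrays were above both WT arrays, and Pfkp rose 1.78-fold (0.83, SE 0.11, 95% interval 0.58 to 1.08, limma adjusted p = 7.72e-04). The liver-type Pfkl was at 7.91 and 7.82 in Foxo1KO cells, against 7.76 and 7.78 in WT cells, and the muscle-type Pfkm was at 7.95 and 7.87, against 7.92 and 8.13. Neither was called, with intervals for the log2 difference of -0.11 to 0.31 for Pfkl and -0.36 to 0.12 for Pfkm. The other Pfkl probe sets differed by 0.37 and -0.08 (limma p adjusted across every probe set 0.111 and 0.702). The dimmer Pfkp probe sets differed by 0.36 and 0.30 (0.0691 and 0.111), much like the first of these. The genes were not tested against each other. Pfkfb3, which makes the activator fructose 2,6-bisphosphate, differed by -0.07 (adjusted p = 0.72), and its probe sets did not share a direction.

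Both hexokinases, which trap glucose in the cell by phosphorylating it, were higher in the knockout. Hk1 was at 10.71 and 10.71 in Foxo1KO cells, against 10.36 and 10.26 in WT cells, a 1.32-fold rise (0.40, SE 0.09, limma adjusted p = 0.0166). Hk2, the hexokinase that growth signals induce, was at 7.80 and 7.95 in Foxo1KO cells, against 7.47 and 7.35 in WT cells, a 1.38-fold rise (0.47, SE 0.10, adjusted p = 0.011). Both differences were wider than the gap within either pair. Without Foxo1KO replicate 1, Foxo1KO replicate 2 or WT replicate 2 the Hk1 call ended (adjusted p = 0.0737, 0.0712 and 0.103, range over all alternatives 0.00565 to 0.103). It ended with the mean of both Hk1 probe sets too (0.28, 0.0933), of which the dimmer differed by 0.17 (p adjusted across every probe set 0.592). Without Foxo1KO replicate 2 or WT replicate 2 the Hk2 call ended (0.0748 and 0.0608, range 0.00723 to 0.0748).

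In the lower part of the pathway 4 of 5 genes rose. Gapdh, which oxidises the triose and makes NADH, was at 12.82 and 12.83 in Foxo1KO cells, against 12.29 and 12.26 in WT cells (1.46-fold, 0.55, SE 0.09, limma adjusted p = 0.0028). This value comes from the probe set at its 3′ end, and all 3 of its probe sets differed by 0.55 to 0.74. Pgk1, which makes the first ATP of the pathway, was at 12.96 and 13.02 in Foxo1KO cells, against 12.46 and 12.42 in WT cells (1.46-fold, 0.55, adjusted p = 0.003). For both genes the replicates lay within 0.1 log2 units of each other and the groups were clearly apart. Such bright probe sets can be close to saturation, which understates a difference, but this was not tested. The same caveat holds for Ldha and Tkt below, which were about as bright as Gapdh and were not called. Pgam1, the phosphoglycerate mutase of most tissues, was at 10.08 and 10.17 in Foxo1KO cells, against 9.78 and 9.65 in WT cells (0.41, SE 0.10, adjusted p = 0.0171). Pkm, the pyruvate kinase of most tissues outside liver, was at 10.12 and 10.23 in Foxo1KO cells, against 9.81 and 9.75 in WT cells (0.40, adjusted p = 0.0174). The Pgam1 call ended without Foxo1KO replicate 2 (0.0949) or WT replicate 2 (0.103, range 0.00731 to 0.103), and the Pkm call likewise (0.0991 and 0.0857, range 0.00794 to 0.0991).

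Bpgm went the other way. It makes 2,3-bisphosphoglycerate, the side product best known in red cells, and it was at 8.49 and 8.48 in Foxo1KO cells, against 8.82 and 8.82 in WT cells. It fell by 0.34 log2 units (SE 0.09, limma adjusted p = 0.0287), a gap far wider than that within either pair, and its other 2 probe sets were also lower, at -0.41 and -0.15. The call ended when any one of the 4 arrays was left out (adjusted p = 0.0966 to 0.108, range over all alternatives 0.0121 to 0.108). With the replicate number as a block it ended too (0.0751).

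Neither glucose transporter was called. Slc2a1, the transporter Glut1, was at 9.44 and 9.55 in Foxo1KO cells, against 9.75 and 9.75 in WT cells, a log2 difference of -0.25 that was not called (95% interval -0.47 to -0.04, limma adjusted p = 0.0935). Its 3 probe sets all lay below WT, by -0.28 to -0.03. Slc2a3, the high-affinity transporter Glut3, was at 11.21 and 11.17 in Foxo1KO cells, against 11.39 and 11.49 in WT cells, and was not called either (-0.25, adjusted p = 0.1), though it was with a trended variance prior (0.0371). Slc16a1, which carries lactate and pyruvate, differed by 0.09 (adjusted p = 0.612). Both Foxo1KO arrays were thus below both WT arrays for each glucose transporter, by less than the test could call.

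At the pyruvate branch point no member was called, and 4 of the 6 differences were negative. Ldha, the lactate dehydrogenase subunit that favours lactate, was at 12.56 and 12.67 in Foxo1KO cells, against 12.37 and 12.51 in WT cells (0.18, 95% interval -0.05 to 0.41, limma adjusted p = 0.27). Its partner Ldhb differed by -0.20 (interval -0.41 to 0.02, adjusted p = 0.185), with all 4 probe sets below WT, by -0.35 to -0.16, and was called with probe sets ending in _s_at or _x_at left out (-0.35, 0.0242). Pdha1, a subunit of pyruvate dehydrogenase, was at 11.71 and 11.76 in Foxo1KO cells, against 11.95 and 12.15 in WT cells (-0.31, adjusted p = 0.0628). The groups did not overlap for Pdha1, and it was called in 4 alternatives: without WT replicate 1 (-0.41, 0.0482), with the mean of its probe sets (-0.42, 0.0156), with a trended variance prior (0.0153) and with the dimmer 50% of genes left out (0.0416). Its other probe set was lower by -0.52 (p adjusted across every probe set 0.0108). Me2, the mitochondrial malic enzyme, was at 9.07 and 9.24 in Foxo1KO cells, against 9.82 and 9.35 in WT cells (-0.43, adjusted p = 0.0791). The WT arrays disagreed for this probe set. Me2 was called lower with the mean of its 4 probe sets (-0.48, adjusted p = 0.00455) and without WT replicate 2 (-0.66, 0.00414), and all 4 probe sets were below WT. Pdk3 differed by 0.13 (adjusted p = 0.384). For Pdk1 the probe set used differed by -0.02 (0.919), but another was at 8.63 and 8.72 in Foxo1KO cells, against 9.33 and 9.45 in WT cells, and was lower by -0.72 (limma p adjusted across every probe set 0.00116).

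Among the 6 pentose phosphate genes only Tktl1 was called. It encodes a protein related in sequence to transketolase, and its log2 levels were 9.50 and 9.01 in Foxo1KO cells (9.26 ± 0.35, SD, n = 2), against 8.45 and 7.84 in WT cells (8.15 ± 0.43, SD, n = 2). The groups did not overlap, though the replicates differed more than for the other members, and Tktl1 rose 2.16-fold (1.11, SE 0.21, 95% interval 0.64 to 1.58, limma adjusted p = 0.00523). Tktl1 is X-linked, and the arrays of the same number, which matched in their Y-linked transcripts, differed by 1.05 for replicate 1 and 1.17 for replicate 2. Without Foxo1KO replicate 1 the difference was 0.87 and its call ended (adjusted p = 0.0507, range 5.24e-05 to 0.0507). Transketolase itself, Tkt, was at 12.51 and 12.76 in Foxo1KO cells, against 12.58 and 12.30 in WT cells (0.19, interval -0.10 to 0.49, adjusted p = 0.347). The remaining 4, Pgd and Pgls of the NADPH-making branch, Rpia and Taldo1, differed by -0.03 to 0.23 and were not called.

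**Figure D3:**
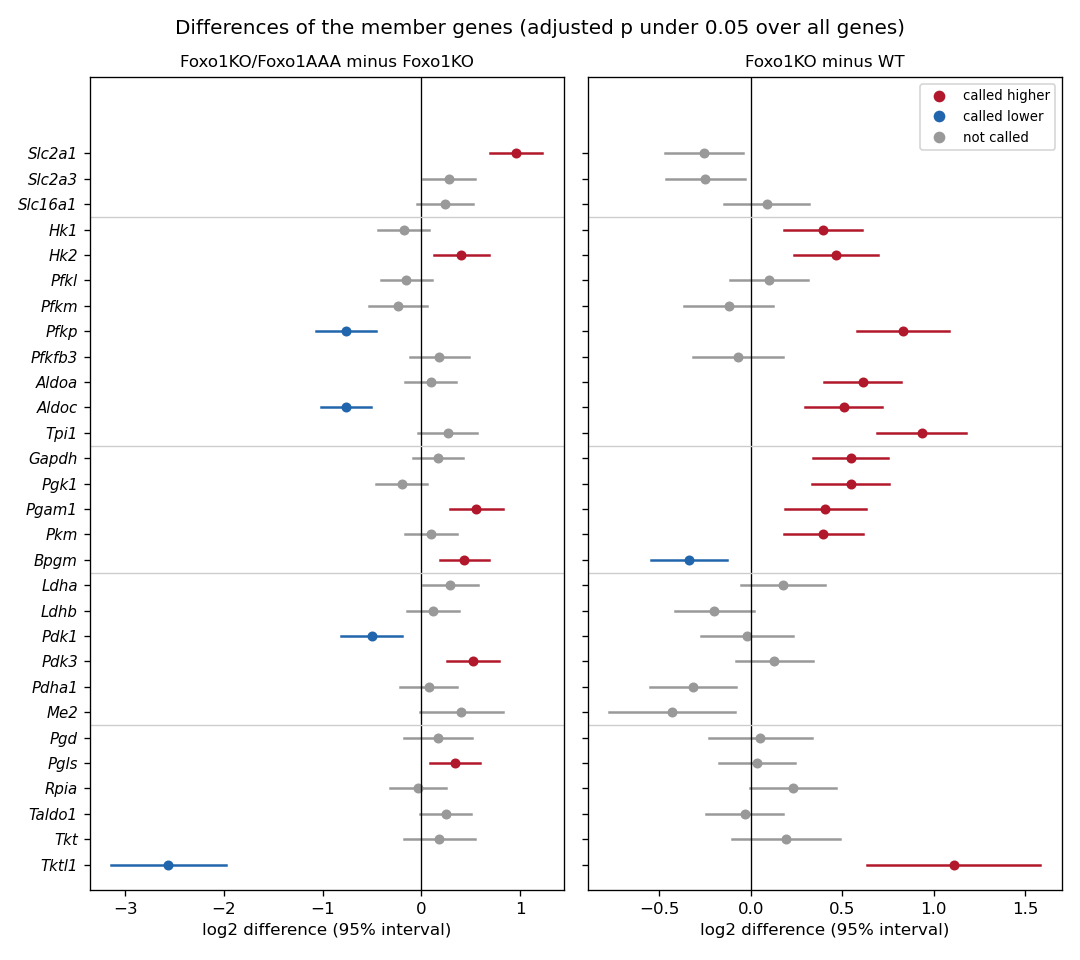
Log2 difference of each tested member with its 95% interval from limma, Foxo1KO/Foxo1AAA minus Foxo1KO on the left and Foxo1KO minus WT on the right; red and blue points passed an adjusted p under 0.05 over all genes, and grey lines separate the roles named in the text. On the right 11 points are called higher and 1 lower, and on the left Pfkp, Aldoc, Pdk1 and Tktl1 are called lower while Slc2a1, Hk2, Pgam1, Bpgm, Pdk3 and Pgls are called higher.

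The second comparison asked whether the active form returned these transcripts to the WT level in the knockout. In Foxo1KO/Foxo1AAA cells 6 members rose and 4 fell relative to Foxo1KO (20.7% and 13.8%), where 19.6% of all tested genes rose and 20.2% fell, 39.8% together. The members' share of calls was thus no higher than that of all genes, and their median difference was 0.17, against -0.02 for all genes. Of the 11 genes raised in Foxo1KO, 3 fell (Pfkp, Aldoc and Tktl1), 6 were not called (Hk1, Aldoa, Tpi1, Gapdh, Pgk1 and Pkm) and 2 rose further (Hk2 and Pgam1). The same split over all genes raised in Foxo1KO is not given here. This comparison shares its Foxo1KO arrays with the first, so an array error in Foxo1KO enters both with opposite sign. The Foxo1KO/Foxo1AAA group has 1 array, whose spread was taken from the replicated groups and could not be checked. Of 6 tested myeloid markers 5 rose in the same comparison, with mean levels as given above, and their part in the differences below was not tested. Of the tested B cell markers 2 of 5 rose, and of the CD8 T and NK cell markers 1 of 4 rose and 2 fell. Of the dendritic cell markers 3 of 4 rose (Itgax by 1.08, Siglech by 0.96 and Flt3 by 0.44) and 1 fell (Zbtb46, -0.77).

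Pfkp was at 10.73 on the Foxo1KO/Foxo1AAA array, against 11.36 and 11.62 in Foxo1KO cells. It fell by 0.76 log2 units (SE 0.13, limma adjusted p = 0.00306), to within 0.07 of the WT mean (adjusted p = 0.725). This holds for its brightest probe set alone: the other 2 gave 0.49 and 0.19, and with the mean of all 3 the call ended (-0.025, 0.856). Aldoc was at 7.54, against 8.29 and 8.33 in Foxo1KO cells, and fell by 0.77 (SE 0.11, adjusted p = 0.00128). It then lay -0.26 from the WT mean, a difference not called (0.111). Tktl1 was at 6.69, against 9.50 and 9.01 in Foxo1KO cells, and fell by 2.56 (SE 0.26, 95% interval -3.14 to -1.98, adjusted p = 1.72e-04), or 5.91-fold. It ended below WT, by -1.45 (adjusted p = 0.00403). On the Foxo1AAA array the levels were 10.70 for Pfkp, 7.53 for Aldoc and 6.81 for Tktl1.

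**Figure D4:**
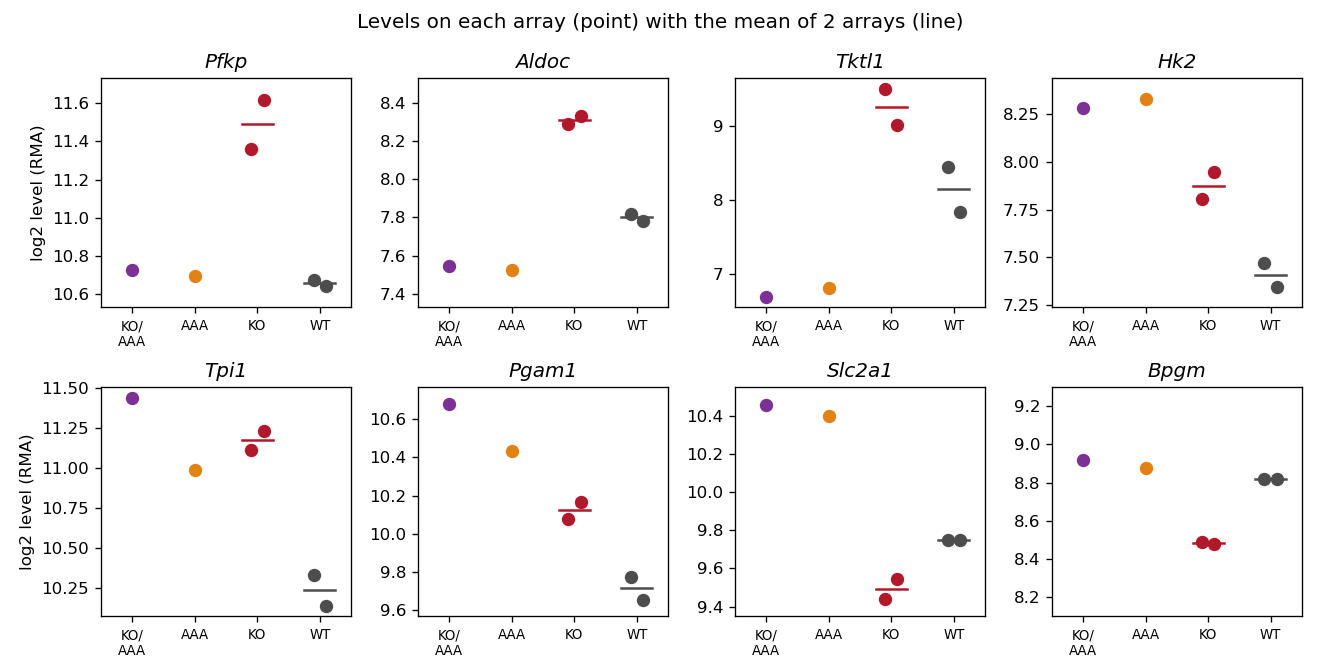
Log2 level (RMA) of 8 members on each array, with a line at the mean of the 2 arrays of a replicated group; KO/AAA is Foxo1KO/Foxo1AAA, AAA is Foxo1AAA, KO is Foxo1KO, and each panel has its own axis that does not start at 0. Pfkp, Aldoc and Tktl1 are highest in Foxo1KO, Hk2, Pgam1 and Slc2a1 are highest on the 2 arrays with the active form, and Bpgm is lowest in Foxo1KO.

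The bases upstream of these 3 genes and of Slc2a1 are printed here because these 4 members had the widest differences between Foxo1KO/Foxo1AAA and Foxo1KO. They are the 250 bases before the annotated start in RefSeq, read 5′ to 3′ on the gene's strand, on GRCm38.p6. Capitals mark the forkhead motif GTAAACA, the hypoxia-response core ACGTG and its variant GCGTG, searched on both strands, so that some capitals are the reverse complement of these letters. Pfkp lies at chr13:6648772-6649021 on the minus strand, the second of 2 Aldoc entries at chr11:78323948-78324197, Tktl1 at chrX:74177009-74177258 and Slc2a1 at chr4:119108495-119108744, all 3 on the plus strand.
Pfkp: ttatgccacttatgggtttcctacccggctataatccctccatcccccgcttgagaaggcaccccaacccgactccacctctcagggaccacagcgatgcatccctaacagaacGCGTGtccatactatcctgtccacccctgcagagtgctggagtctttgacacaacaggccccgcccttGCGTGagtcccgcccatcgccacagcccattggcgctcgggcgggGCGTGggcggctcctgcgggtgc
Aldoc: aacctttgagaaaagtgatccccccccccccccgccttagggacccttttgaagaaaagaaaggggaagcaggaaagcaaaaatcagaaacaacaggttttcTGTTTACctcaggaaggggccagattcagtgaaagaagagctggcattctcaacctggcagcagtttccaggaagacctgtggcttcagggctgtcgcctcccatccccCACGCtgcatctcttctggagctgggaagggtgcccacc
Tktl1: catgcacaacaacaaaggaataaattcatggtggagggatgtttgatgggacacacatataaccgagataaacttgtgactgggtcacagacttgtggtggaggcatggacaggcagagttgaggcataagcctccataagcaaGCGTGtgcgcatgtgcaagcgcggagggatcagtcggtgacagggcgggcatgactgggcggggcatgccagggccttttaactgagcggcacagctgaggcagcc
Slc2a1: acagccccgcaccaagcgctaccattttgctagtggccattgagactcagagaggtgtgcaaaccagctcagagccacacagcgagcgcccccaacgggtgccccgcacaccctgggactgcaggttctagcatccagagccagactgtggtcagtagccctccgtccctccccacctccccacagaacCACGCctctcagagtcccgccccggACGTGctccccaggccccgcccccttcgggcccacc
Aldoc was the only one of the 28 members with a promoter entry to hold GTAAACA, which was in the promoters of 3.54% of all genes (3.17% of 32851 promoters of that length). ACGTG was in the promoters of 12 of 28 members (18.5% of all genes), and GCGTG in those of 21 of 28 (30.9% of all genes). The E-box CACGTG, which contains ACGTG, was in 4 of 40 member promoters (Ldha, Pfkfb3, Pfkm and Slc16a1) and in 6.02% of all promoters. Me2 and Slc2a3 had no entry. A match describes letters in this window and not a bound site.

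The members that rose with the active form were led by Slc2a1. It was at 10.46 on the Foxo1KO/Foxo1AAA array, against 9.44 and 9.55 in Foxo1KO cells, a 1.95-fold rise (0.96, SE 0.12, limma adjusted p = 4.6e-04), and its 3 probe sets rose by 0.54 to 1.01. Pgam1 was at 10.68, against 10.08 and 10.17 in Foxo1KO cells (0.56, adjusted p = 0.00702). Both arrays with the active form were above all other arrays for these 2 genes. Pdk3, a kinase that restrains pyruvate dehydrogenase, was at 9.61, against 9.10 and 9.08 in Foxo1KO cells (0.52, adjusted p = 0.00752). Bpgm was at 8.92, against 8.49 and 8.48 in Foxo1KO cells (0.44, adjusted p = 0.0144), and so stood 0.10 from the WT mean. It was the 1 member called lower in Foxo1KO and higher again with the active form. Its 3 probe sets rose by 0.44 to 0.87.

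Calls of Hk2, Pgls and Pdk1 in this comparison also depended on single arrays or probe sets. Hk2 was at 8.28 on the Foxo1KO/Foxo1AAA array, against 7.80 and 7.95 in Foxo1KO cells (0.41, limma adjusted p = 0.0306), and lost its call without Foxo1KO replicate 1 (0.34, 0.116, range 0.0146 to 0.116). Pgls, the lactonase of the NADPH branch, was at 10.01, against 9.65 and 9.69 in Foxo1KO cells (0.34, adjusted p = 0.0405), and lost its call when any replicated array was left out (0.0555 to 0.112, range over all alternatives 0.022 to 0.112). Pdk1 was at 10.56, against 11.16 and 10.95 in Foxo1KO cells (-0.50, adjusted p = 0.0188). Its 3 other probe sets gave 0.21 to 0.62, of the opposite sign, so no direction is given for Pdk1 as a gene. Its call also ended without Foxo1KO replicate 1 (-0.39, 0.0827).

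Against WT, both lone arrays were again high for many glycolysis genes. In Foxo1KO/Foxo1AAA cells 11 members rose and 2 fell (30.7% of all tested genes were called, 17% higher and 13.7% lower), with a median of 0.22 against -0.02 for all genes. In Foxo1AAA cells 8 rose and 3 fell (27.5% of all tested genes were called, 13.4% higher and 14.1% lower), with a median of 0.19 against -0.02. These comparisons share their WT arrays with each other and with the first. Of the 11 genes higher in Foxo1KO, 7 were also called higher in Foxo1KO/Foxo1AAA and 6 in Foxo1AAA. The shared WT arrays favour such an overlap, and its share over all genes is not given here. Proliferation markers were higher there as well, 10 of 11 in each, and so were all 6 tested myeloid markers and 3 of 5 B cell markers in each. Of 4 tested dendritic cell markers 3 rose and 1 fell in each. The CD8 T and NK cell markers were divided. Cd8b1 differed by 1.10 in Foxo1KO/Foxo1AAA and 0.69 in Foxo1AAA, but Cd8a by -0.44 and -0.67. Eomes differed by 1.05 and 0.27, and Ncr1 by -0.009 and 0.32. Their part was not tested.

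Tpi1 was at 11.44 in Foxo1KO/Foxo1AAA cells and 10.98 in Foxo1AAA cells, against 10.33 and 10.14 in WT cells, a rise of 1.20 (limma adjusted p = 3.31e-04) and 0.75 (0.00463). Hk2 was at 8.28 and 8.33 in the same cells, against 7.47 and 7.35 in WT cells, a rise of 0.87 (0.00142) and 0.92 (0.00138). For Hk2 the knockout alone gave 0.47, and Foxo1AAA was not tested against Foxo1KO. Slc2a1 was at 10.46 and 10.40, against 9.75 and 9.75 in WT cells, a rise of 0.71 (0.00278) and 0.65 (0.00505). The transporter was thus called higher on both arrays with Foxo1AAA and not in Foxo1KO. Pgam1 rose by 0.97 and 0.72 (6.83e-04 and 0.00379), Aldoa by 0.71 and 0.59 (0.00268 and 0.00745), and Gapdh by 0.72 and 0.50 (0.0022 and 0.0126). Pdk3 rose by 0.65 (0.00388) in Foxo1KO/Foxo1AAA cells and 0.41 (0.028) in Foxo1AAA cells. The second of these ended without WT replicate 1 (0.0954) or WT replicate 2 (0.0514).

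Smaller differences on the lone arrays were less steady. Pkm rose by 0.49 in Foxo1KO/Foxo1AAA cells (limma adjusted p = 0.0147) and by 0.38 in Foxo1AAA cells (0.0412), and the second call ended when any replicated array was left out (0.0509 to 0.132). Pgk1, at 12.79 in Foxo1KO/Foxo1AAA cells against 12.46 and 12.42 in WT cells, rose by 0.35 (0.0466), and that call ended without any one replicated array (0.0598 to 0.144), with the mean of its probe sets (0.12) and with no filter (0.0541). Ldha rose by 0.47 in Foxo1KO/Foxo1AAA cells (0.0219), which ended without WT replicate 1 (0.0756). Pgls rose by 0.38 there (0.0349), which ended without WT replicate 1 (0.0719) or WT replicate 2 (0.115). The Pfkl probe set used fell by 0.43 in Foxo1AAA cells (0.0252), a call that ended without WT replicate 1 or WT replicate 2. Another Pfkl probe set was at 7.93, against 7.09 and 6.84 in WT cells, higher by 0.96, and the third gave -0.21. No direction is therefore given for Pfkl as a gene in this comparison. Tktl1, the member with the largest shift, fell by 1.34 in Foxo1AAA cells (0.00686), to 6.81 against 8.45 and 7.84 in WT cells.

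Tktl1, Pgk1, Pdk3 and Pdha1 are X-linked. Tktl1 was lowest on the 2 arrays with low Xist, whereas Pdk3 was highest on them and Pdha1 lay within the range of the other arrays. In these groups Xist and the active form cannot be told apart, because both arrays with Foxo1AAA had low Xist and none of the others did. Replicate 1 of Foxo1KO and of WT had Xist at 13.14 and 13.43, above replicate 2 (12.59 and 12.03). In both groups replicate 1 also had the higher Tktl1 but the lower Pdha1. A link of these genes to Xist was not tested.

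The interaction compared the knockout difference in the presence of the active form with that in its absence. It was called for 1 member, Pfkp, and for 5.94% of all tested genes (2.81% higher and 3.14% lower). Pfkp differed by 0.03 between the Foxo1KO/Foxo1AAA and Foxo1AAA arrays, against 0.83 between Foxo1KO and WT (interaction -0.80, SE 0.19, 95% interval -1.24 to -0.37, limma adjusted p = 0.0454). The call ended without Foxo1KO replicate 2 (-0.67, 0.0988), without WT replicate 2 (0.0575) and with the mean of the gene's probe sets (-0.19, 0.525), over a range of 0.0138 to 0.525. For Tktl1 the interaction was -1.23 and not called (0.0946), but it was without WT replicate 1 (-1.53, 0.0035) and with arrays centred on their medians (-1.26, 0.0241). Between the 2 lone arrays themselves no member was called by limma (0.0733% of all tested genes were, 0.066% higher and 0.00733% lower). The differences ran between -0.20 and 0.45 with a median of 0.06, and 2 members, Pfkl and Tpi1, passed an unadjusted p under 0.05. With 1 array on each side this comparison could call only large differences.

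Probe sets of a gene did not always share a direction. Of 18 tested members with more than 1 probe set above the filter, 16 had all of them on one side of WT in Foxo1KO, with Pfkl and Pfkfb3 as the exceptions. In Foxo1KO/Foxo1AAA against Foxo1KO 10 of the 18 did, and Hk1, Pfkl, Pfkp, Pfkfb3, Aldoa, Ldhb, Pdk1 and Tkt had probe sets on both sides. For Pfkp the bright probe set gave 0.83 in Foxo1KO against WT, and the 2 dimmer ones 0.36 and 0.30 (p adjusted across every probe set 0.0691 and 0.111). In Foxo1KO/Foxo1AAA against Foxo1KO the same 2 gave 0.49 (0.0241) and 0.19 (0.306), opposite in sign to the -0.76 of the bright one. For Pgk1 the 2 other probe sets fell with the active form, by 0.49 (0.0153) and 0.51 (0.0126), where the one used gave -0.20 and was not called. For Aldoa 2 other probe sets rose, by 0.70 (0.00252) and 0.44 (0.0254), and for Gapdh 1 other rose by 0.41 (0.0307), where those used gave 0.10 and 0.17. The main Tktl1 probe set, which may cross-detect related transcripts by its name, and a second one fell by 2.56 and 2.23, and the third and dimmest by 0.87.

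**Figure D5:**
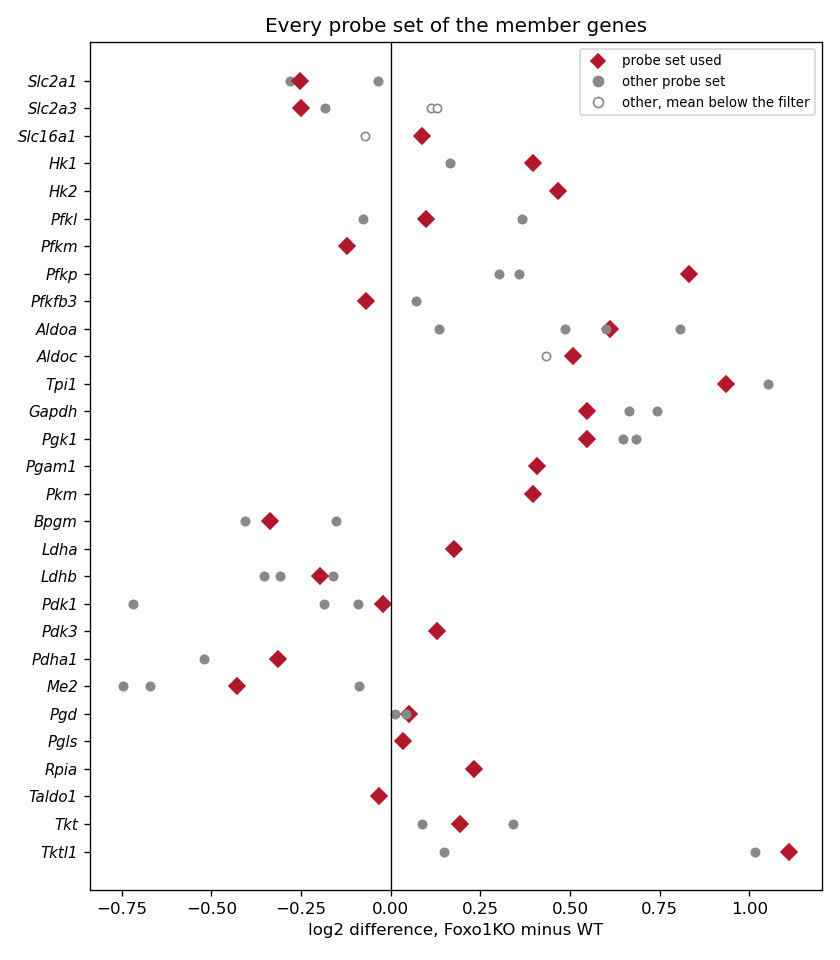
Log2 difference, Foxo1KO minus WT, of every probe set of each tested member; red diamonds are the probe sets used, grey points the others, and open points those with a mean below the filter. Tpi1, Gapdh and Pgk1 have all probe sets above 0.5, Bpgm, Ldhb and Me2 have all below 0, and Pfkl and Pfkfb3 have filled points on both sides.

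Few genes of the same pathways outside the 33 were called in Foxo1KO against WT. In 4 further lists, 2 of 50 tested genes rose and 6 fell (4% and 12%, against 11.2% and 10.7% of all tested genes), with a median of 0.02 against 0.03. Among 21 tested genes of glycolysis and glucose entry, 1 rose and 4 fell. Slc2a8, an intracellular hexose transporter, was at 9.15 and 9.20 in Foxo1KO cells, against 8.73 and 8.91 in WT cells (0.35, limma adjusted p = 0.0366). The genes that fell were led by 3 with clear separation. Galm, which interconverts the anomers of galactose, was at 7.96 and 7.88 in Foxo1KO cells, against 8.87 and 8.77 in WT cells (-0.90, 2.32e-04). Adpgk, an ADP-dependent glucokinase, was at 7.57 and 7.66 in Foxo1KO cells, against 8.27 and 8.54 in WT cells (-0.79, 0.00122). Eno3, the enolase of muscle, was at 9.06 and 9.17 in Foxo1KO cells, against 9.69 and 9.70 in WT cells (-0.59, 0.00229). Galm and Adpgk rose by 0.79 (0.00138) and 0.45 (0.033) in Foxo1KO/Foxo1AAA relative to Foxo1KO, whereas Slc2a8 fell by 0.54 (0.00948) and Eno3 differed by -0.32 (0.0578). In Foxo1KO against WT, no gene of the 12 tested in the pyruvate list was called by limma, nor did any pass an unadjusted p under 0.05. In Foxo1KO/Foxo1AAA relative to Foxo1KO the differences of these 12 were wider, from -0.58 to 1.42 with a median of 0.13. In the pentose phosphate list 1 of 5 fell in Foxo1KO against WT, the ribose phosphate kinase Prps2 (-0.35, limma adjusted p = 0.0285).

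The regulators were divided too, with 1 of 12 tested higher and 1 lower in Foxo1KO. Hif1a, the hypoxia-induced activator of glycolytic genes, was at 12.90 and 12.90 in Foxo1KO cells, against 12.54 and 12.49 in WT cells (0.39, limma adjusted p = 0.0159). It was also higher than WT in Foxo1KO/Foxo1AAA (0.36, 0.0401) and Foxo1AAA (0.35, 0.0457). Myc, which drives glucose transport and glycolysis in activated T cells, was at 9.88 and 9.98 in Foxo1KO cells, against 10.58 and 10.56 in WT cells (-0.64, 0.00146), and was higher by 0.34 (0.0443) in Foxo1KO/Foxo1AAA than in Foxo1KO. Txnip, an arrestin-like protein that restrains glucose uptake, was at 11.95 and 12.05 in Foxo1KO cells, against 12.14 and 12.21 in WT cells, and was not called (-0.17, 0.253). In Foxo1AAA cells it fell by 0.38 relative to WT (0.0411).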

How the data were processed

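Transcripts of sorted mouse Treg cells were measured on 6 Affymetrix arrays. The deposited values are on the log2 scale. Per the submitters' processing notes, the authors used RMA, R 2.15 and limma 3.12.1. RMA quantile-normalizes the arrays together, which hides any change shared by most genes. The number of arrays limits the precision.

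Of 45101 probe sets, 34958 were listed with 1 gene, 932 with several and 9211 were not listed, and only the first kind was used. Each of 18194 genes was represented by its brightest probe set on average over the 6 arrays, a choice that mattered for 9012 genes. Genes in the lowest 25% by mean (below 5.47) were left out, leaving 13645. A model with 1 coefficient per group was fitted in limma 3.58.1 (R 4.3.3) using an empirical Bayes prior (2 residual degrees of freedom, 6.59 prior degrees of freedom, prior SD 0.10). Tests were two-sided, with Benjamini-Hochberg adjustment over all 13645 genes. No exact permutation test was run, since with 2 arrays a side its smallest p is 0.333. The steps were tested on simulated data. Alternatives varied the filter, the probe set kept, the centring of arrays, the variance prior, a replicate block and each replicated array in turn.

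Any of the 33 members could be named. Those called in Foxo1KO against WT are given with the value of every Foxo1KO and WT array. The others are given by ranges, or singly where calls changed or isozymes were set side by side. Of other pathway genes, up to 3 called genes per direction and list, and Hif1a, Myc and Txnip, are named. The members and all lists were chosen with earlier results of these data known. Promoter sequences are from RefSeq on GRCm38.p6, with entries for 28 members.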

Additional observations from a re-analysis of the deposited data

Results flagged for a closer look

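For the brightest probe set of Pfkp, the knockout difference with the active form of Foxo1 differed past the threshold from that without it, in a test of the interaction. Foxo1KO/Foxo1AAA minus Foxo1AAA was 0.03 log2 units and Foxo1KO minus WT was 0.83, which gives an interaction of -0.80 (SE 0.19, limma adjusted p = 0.0454). Its 2 dimmer probe sets gave interactions of 0.42 and -0.19 (limma p adjusted across every probe set 0.315 and 0.683), and for the brightest one that adjusted p was 0.059. With the mean of its probe sets the interaction was -0.19 (adjusted p = 0.525), and the call also ended without Foxo1KO replicate 2 (0.0988) or WT replicate 2 (0.0575). Groups of 1 or 2 arrays are too small for a search for single outlying arrays.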

How the results depend on the processing

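Of the calls, 6 of 12 were kept under every alternative in Foxo1KO against WT (Pfkp, Aldoa, Aldoc, Tpi1, Gapdh and Pgk1), 6 of 10 in Foxo1KO/Foxo1AAA against Foxo1KO (Slc2a1, Aldoc, Pgam1, Bpgm, Pdk3 and Tktl1), 7 of 11 in Foxo1AAA against WT and 9 of 13 in Foxo1KO/Foxo1AAA against WT. When each array was left out in turn, the number of called members ran between 7 and 12 in Foxo1KO against WT, 7 and 10 in Foxo1AAA against WT, and 0 and 2 in the interaction. The lowest of the first range came without Foxo1KO replicate 2. The interaction called 0 members by limma with the mean of all probe sets (9 had an unadjusted p under 0.05) and 2 with arrays centred on their medians, which added Tktl1. That centring moved the median difference of all genes by 0.11 in Foxo1AAA against WT and by 0.08 in Foxo1KO/Foxo1AAA against either Foxo1KO or WT. With the replicate number as a block, Foxo1KO against WT called 11 members and not Bpgm. Deviations of same-numbered arrays correlated at -0.096 over all tested genes, although these arrays matched in their Y-linked transcripts. Beyond that match, the numbers are not shown to pair the arrays. Signs turned only for small or probe-dependent differences. In Foxo1KO against WT, Pfkfb3 gave 0.00076 with the mean of probe sets. Leaving out 1 array at a time gave -0.18 to 0.038 for Pfkfb3, -0.13 to 0.084 for Pdk1 and -0.095 to 0.20 for Pgd. With the mean of probe sets, Pdk1 gave 0.15 in Foxo1KO/Foxo1AAA against Foxo1KO and Pfkl gave 0.11 in Foxo1AAA against WT. Apart from the use of fewer arrays, the causes were not tested. Aldoa and Slc2a3 had no value with probe sets ending in _s_at or _x_at left out, nor Gapdh without control probe sets. Dim probe sets flatten near background, which limits what can be said of Slc16a3.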
